A study of Mus musculus with 16 samples.

Results

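Krüppel-like factors (KLFs) were examined in sorted splenic B-cells, as the genes whose symbol in the expression values was Klf2, Klf3, Klf4, Klf6, Klf7, Klf9, Klf10 or Klf13. All 8 were found among the 38355 genes measured, and all 8 passed the filter on low values. The RNA-Seq experiment covered 4 subsets of B-cells from spleens of C57BL/6 mice, either Mir146a-/- (KO) or wild-type (WT). These were transitional 1 (T1), transitional 2 (T2), marginal zone (MZ) and follicular (FO) B-cells. There were 8 groups of 2 biological replicates, 16 libraries in all, and each sort drew on the pooled spleens of several mice, so that a library averages animals. The KO mice lack miR-146a in every cell of the body and not in B-cells alone. The sorts used surface CD23, AA4, IgM and CD21, with T1 taken as CD23- AA4+, T2 as CD23+ AA4+, MZ as CD23- AA4- with high CD21, and FO as CD23+ AA4- with intermediate CD21.

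KLFs are transcription factors that bind CACCC and GC-rich sites in DNA through C2H2 zinc fingers at their carboxyl end, and they differ in the domains that recruit activators or repressors. In lymphocytes Klf2 holds naive cells in quiescence and drives homing receptors. B-cells of mice that lack Klf2 shift toward the MZ fate and away from the FO fate. Klf3 represses through the corepressor CtBP and has been tied in mice to the formation of MZ B-cells. Klf13 can recruit the Sin3a repressor, Klf9 is induced by glucocorticoid and thyroid hormones, and Klf7 is best known from neurons. Klf4, Klf6 and Klf10 are early-response genes, which many cells switch on within a short time of a stimulus or of handling, and Klf4 can halt the cell cycle. Klf10 was first found as a gene induced by TGFβ. On GRCm38 the genes lie at chr8:72319033-72321656 (Klf2), chr5:64803388-64832901 (Klf3), chr4:55527143-55532466 (Klf4) and chr13:5861482-5870394 (Klf6). The others lie at chr1:64029447-64122282 (Klf7), chr19:23141226-23168134 (Klf9), chr15:38291463-38300706 (Klf10) and chr7:63886351-63938915 (Klf13).

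The level of a gene is given as RPKM (reads scaled to the exon length of the gene and to the mapped reads of the library). Klf2 was the most abundant KLF over the 16 libraries, with a mean of 255 RPKM, followed by Klf6 (91.0 RPKM), Klf4 (55.2 RPKM), Klf13 (46.0 RPKM) and Klf3 (39.6 RPKM). The other members were low, with a mean of 4.64 RPKM for Klf7, 4.59 RPKM for Klf10 and 2.19 RPKM for Klf9. The order among the abundant genes depended on the library, because Klf4 spanned 0.874 to 192 RPKM and Klf2 spanned 9.66 to 556 RPKM, while Klf3 spanned 19.4 to 54.2 RPKM and Klf13 spanned 32.8 to 69.0 RPKM. Behind these values stood 36 to 7360 reads per library for Klf4 and 241 to 25966 for Klf2. Counts were smaller for Klf9 (60 to 234 reads) and Klf10 (66 to 479 reads).

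**Figure D1:**
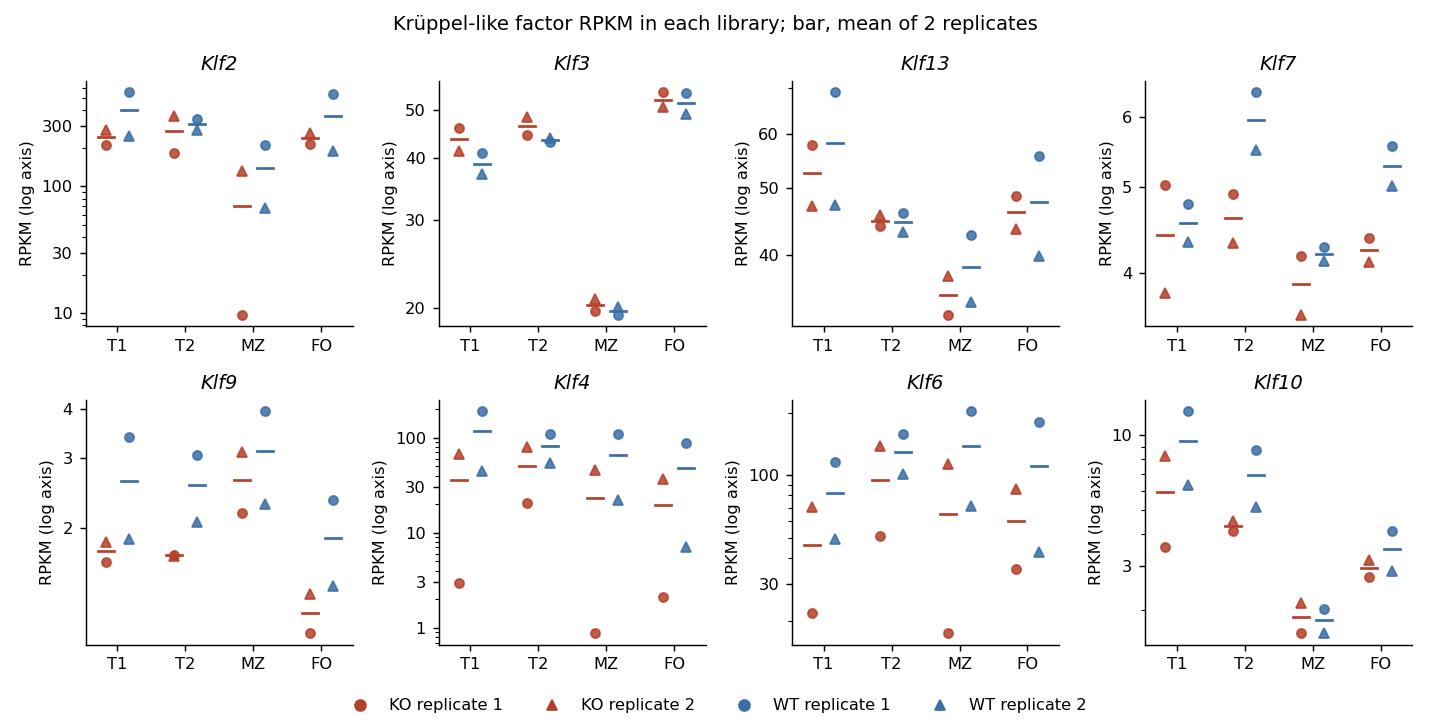
RPKM (log axis) of the 8 KLFs in each library, with KO left of WT within each subset, a circle for replicate 1, a triangle for replicate 2 and a bar at the mean of the 2. Klf3 falls into a tight low group in MZ B-cells, whereas Klf4 spans 0.874 to 192 RPKM and its replicates stand far apart.

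Promoter sequences are shown for Klf2 and Klf3, the 2 KLFs called lower in MZ B-cells than in both T2 and FO B-cells. Those of Klf4 and Klf6, the 2 whose replicates differed most, are also shown. All are RefSeq sequences of GRCm38.p6, 300 bases long, from 250 bases before to 50 bases after the start of the gene. Of the 8 KLFs, 7 were matched by symbol, and Klf10 was not. Klf2 lies at chr8:72318812-72319111 (plus strand), Klf3 at chr5:64803271-64803570 (plus strand), Klf4 at chr4:55532426-55532725 (minus strand) and Klf6 at chr13:5861239-5861538 (plus strand). Capitals mark matches, on either strand, to CACCC (the KLF site), CGTCA (a CREB half-site), CCAAT and the MEF2 motif.
Klf2: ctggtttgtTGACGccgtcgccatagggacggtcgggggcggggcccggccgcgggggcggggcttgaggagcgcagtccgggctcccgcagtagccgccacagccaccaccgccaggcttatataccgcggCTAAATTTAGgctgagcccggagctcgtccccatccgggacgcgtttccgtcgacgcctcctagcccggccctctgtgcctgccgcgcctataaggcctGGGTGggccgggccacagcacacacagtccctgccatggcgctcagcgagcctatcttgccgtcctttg
Klf3: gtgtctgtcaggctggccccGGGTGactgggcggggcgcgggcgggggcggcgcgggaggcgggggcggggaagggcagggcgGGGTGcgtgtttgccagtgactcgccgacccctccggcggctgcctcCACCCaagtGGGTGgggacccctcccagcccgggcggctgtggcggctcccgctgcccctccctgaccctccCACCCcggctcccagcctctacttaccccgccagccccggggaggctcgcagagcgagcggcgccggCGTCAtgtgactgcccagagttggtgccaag
Klf4: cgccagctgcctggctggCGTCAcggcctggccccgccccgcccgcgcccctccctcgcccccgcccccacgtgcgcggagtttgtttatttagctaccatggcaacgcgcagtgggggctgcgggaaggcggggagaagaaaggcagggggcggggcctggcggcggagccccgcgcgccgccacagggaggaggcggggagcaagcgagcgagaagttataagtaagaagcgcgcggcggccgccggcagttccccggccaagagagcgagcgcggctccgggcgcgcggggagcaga
Klf6: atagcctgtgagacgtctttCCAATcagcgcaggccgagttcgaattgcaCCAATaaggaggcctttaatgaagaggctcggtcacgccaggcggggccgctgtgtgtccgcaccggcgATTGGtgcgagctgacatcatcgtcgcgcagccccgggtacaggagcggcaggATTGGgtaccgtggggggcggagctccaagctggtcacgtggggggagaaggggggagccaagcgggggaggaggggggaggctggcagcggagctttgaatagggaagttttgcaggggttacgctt
Klf3 had 5 CACCC matches, 1 of which shares a base with a GGGCGG match, and Klf2 had 1, whereas Klf4 and Klf6 had 0. A CACCC match was found in 57.5% of 32851 promoters of the same length. The Klf2 promoter was the only one of the 7 with a MEF2 motif, which 3.19% of all promoters hold, and MEF2 factors acting below the kinase ERK5 are known activators of Klf2. CGTCA had 1 match each in Klf2, Klf3 and Klf4 (20.8% of all promoters hold one), and CCAAT had 4 matches in Klf6 (37.4% of all promoters). GGGCGG, the GC box, is not capitalised; it had 2 matches in Klf2, 6 in Klf3, 4 in Klf4 and 1 in Klf6, and 35.7% of all promoters hold it. None of the 7 promoters held a CArG box, the site of serum response factor, which 1.63% of all promoters hold. These matches describe the letters of the window only.

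The read totals behind the RPKM scaling were 9003343 to 26386684 per library, as recovered from the steps between RPKM values and annotated exon lengths. These totals were not matched to the authors' count of mapped reads. B-cell identity was plain in each library, where Cd79b stood at 1136 to 1933 RPKM. Endothelial markers, which matter here because endothelium expresses Klf2 and Klf4, summed to 0.470 to 1.64 RPKM over 6 genes, most of it from Cdh5, and 12 myeloid markers summed to 9.88 to 137 RPKM. In contrast, 18 immediate early and handling genes (Fos, Zfp36, Junb and Fosb were the highest by mean) summed to 380 RPKM in KO MZ replicate 1 and to 5361 RPKM in WT T1 replicate 1. Replicate 2 was the higher one in all 4 KO groups and replicate 1 in all 4 WT groups. The gene of miR-146a, Mir146, was listed at 0 in 14 of the 16 libraries, so its RPKM cannot check the genotype labels. In sorted bulk samples, fewer cells of a type and less RNA per cell cannot be told apart.

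The first question was how the KLFs changed between stages, with the KO and WT differences averaged. A gene was called when its adjusted p was under 0.05 (limma on log2(RPKM + 0.5), Benjamini-Hochberg over 12507 genes), its log2 difference was beyond 1 in size and its mean was over 1 RPKM in a compared group. From T2 to MZ, Klf2, Klf3 and Klf10 were called lower and no KLF was called higher, which is 3 of 8, against 10.8% of all genes tested. In MZ relative to FO, Klf2 and Klf3 were called lower, 2 of 8 against 9.2% of all genes. None of the 8 was called in T2 relative to T1, where 5.43% of all genes were called, or in FO relative to T2, where 1.14% were called. An alternative fit that allowed for replicate number within each genotype called Klf4 lower in FO than in T2 and in MZ than in T2. At an unadjusted p under 0.05 (limma), 4 of 8 passed from T2 to MZ and 5 of 8 in MZ relative to FO, against 50.4% and 45.8% of all genes. In T2 relative to T1, 0 of 8 passed, and in FO relative to T2, 2 of 8 (Klf3 and Klf10) did, against 38% and 31.2% of all genes. In these last 2 comparisons limma-voom on the recovered reads also called 0. The median log2 difference of the 8 KLFs was -0.82 from T2 to MZ and -0.28 in MZ relative to FO, where the medians of all genes tested were 0.020 and 0.037. Among 12 myeloid markers, 10 were tested. From T2 to MZ, 3 were called lower (4.25% of all genes were), and 0 were called in MZ relative to FO. In FO relative to T2, 6 were called lower (0.736% of all genes were). In T2 relative to T1, 2 were called higher (2.27% of all genes were). The sum of the 12 markers was 22.7 to 64.5 RPKM in MZ, against 77.6 to 137 RPKM in T2, and 9.88 to 39.6 RPKM in FO. The part of this sum in the KLF differences was not tested. All 8 T-cell markers had log2 differences below 0 in MZ relative to FO (0 called, median -0.78), and their sum was 8.64 to 19.1 RPKM in MZ, against 27.4 to 29.4 RPKM in FO. Of 5 plasma cell markers, 4 were called lower in T2 than in T1, and their sum was 114 to 222 RPKM in T2, against 686 to 4160 RPKM in T1. The part of either in the KLF values was not tested.

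Klf3, the CtBP-dependent repressor, gave the clearest stage difference. In T1 B-cells it stood at 45.9 and 41.4 RPKM in KO and at 40.9 and 37.1 RPKM in WT, and in T2 B-cells at 44.4 and 48.4 RPKM in KO and at 43.1 and 43.8 RPKM in WT. MZ B-cells had 19.7 and 20.8 RPKM in KO and 19.4 and 20.1 RPKM in WT. FO B-cells had 54.2 and 50.6 RPKM in KO and 54.1 and 49.0 RPKM in WT. All 4 MZ libraries therefore lay below all 12 others, with no value between 20.8 and 37.1 RPKM. The MZ mean was 20.01 ± 0.619 RPKM, against 44.9 ± 2.34 RPKM in T2 (SD, n = 4 each), a log2 difference of -1.15 (SE 0.063, adjusted p = 2.89e-07). Relative to FO (52.0 ± 2.58 RPKM) the log2 difference was -1.35 (SE 0.063, adjusted p = 9.53e-08). Each genotype alone gave the same call, with log2 differences from T2 to MZ of -1.17 in KO and -1.12 in WT, and in MZ relative to FO of -1.35 in KO and -1.36 in WT. Klf3 was slightly higher in FO than in T2, without overlap of libraries, but this missed the threshold (log2 difference 0.21, SE 0.063, adjusted p = 0.0597), and T1 and T2 overlapped.

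**Figure D2:**
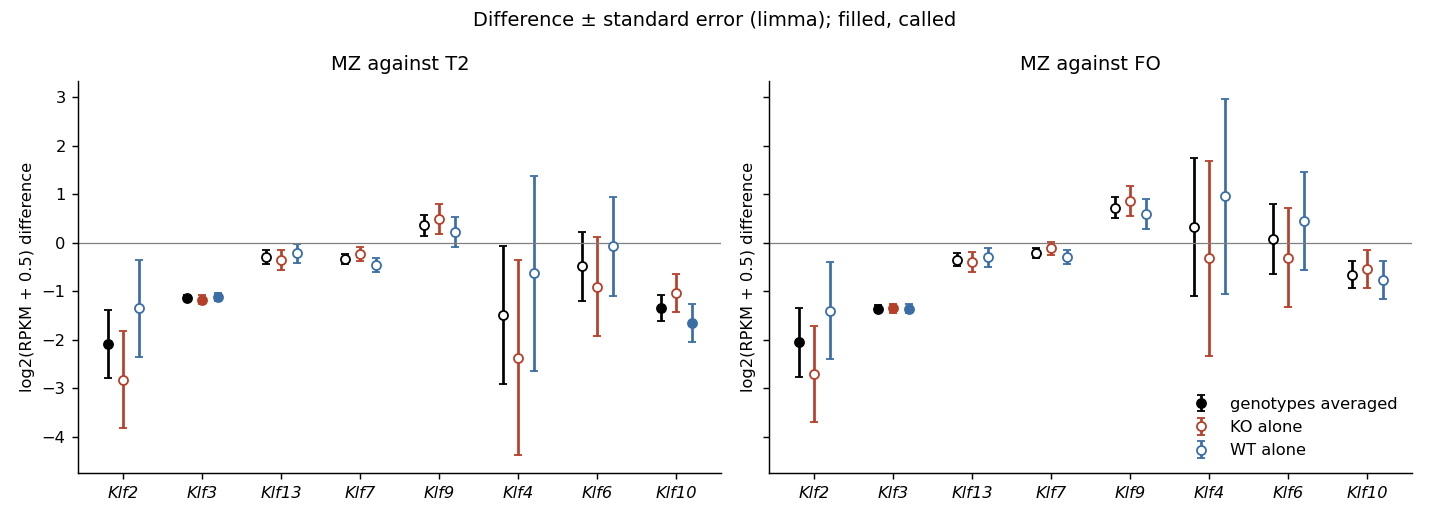
Difference in log2(RPKM + 0.5) of MZ against T2 (left) and of MZ against FO (right) for each KLF, with the standard error from limma, for both genotypes averaged (black), KO alone (red) and WT alone (blue), where filled points were called. Klf3 is called in every case with a short error bar, and the averaged Klf2 difference is -2.09 on the left and -2.05 on the right with a standard error of 0.71.

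Klf2, the quiescence and homing factor, was also lower in MZ B-cells, but with a wide spread. T1 libraries stood at 211 and 278 RPKM in KO and at 556 and 249 RPKM in WT, and T2 libraries at 185 and 362 RPKM in KO and at 339 and 278 RPKM in WT. MZ libraries had 9.66 and 131 RPKM in KO and 211 and 68.1 RPKM in WT. FO libraries had 215 and 263 RPKM in KO and 533 and 189.6 RPKM in WT. Both KO MZ libraries were below all other KO libraries. WT MZ replicate 2 was below all other WT libraries, while WT MZ replicate 1 overlapped the lowest T2 and FO libraries. The log2 difference from T2 to MZ was -2.09 (SE 0.71, adjusted p = 0.0347) and in MZ relative to FO -2.05 (SE 0.71, adjusted p = 0.0412). T1, T2 and FO did not differ beyond their spread, with means of 323 ± 157, 291 ± 79.2 and 300.3 ± 158 RPKM (SD, n = 4 each).

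The size and the call for Klf2 rested on single libraries. Without KO MZ replicate 1 the log2 difference was -1.16 from T2 to MZ (adjusted p = 0.0951) and -1.13 relative to FO (adjusted p = 0.12). The call from T2 to MZ was also lost without KO T2 replicate 2 (-1.85, adjusted p = 0.101), WT T2 replicate 1 (-2.02, adjusted p = 0.089), WT T2 replicate 2 (-2.16, adjusted p = 0.0679) or WT MZ replicate 2 (-1.68, adjusted p = 0.123). Relative to FO it was lost without KO FO replicate 1 (-2.13, adjusted p = 0.0838), KO FO replicate 2 (-1.98, adjusted p = 0.101), WT MZ replicate 2 (-1.65, adjusted p = 0.147) or WT FO replicate 1 (-1.68, adjusted p = 0.142). The call was also lost in both comparisons with no filter on low values (adjusted p = 0.068 and 0.0816 by limma) and with only the compared groups in the fit (0.0755 and 0.0863). From T2 to MZ it was lost without all KO replicate 1 libraries (-1.41, adjusted p = 0.143) or all WT replicate 1 libraries (-2.42, adjusted p = 0.118), and relative to FO likewise (-1.20, adjusted p = 0.224, and -2.09, adjusted p = 0.185). The difference kept its sign in all of these. Neither genotype alone passed, with log2 differences from T2 to MZ of -2.82 in KO (adjusted p = 0.0623) and -1.35 in WT (adjusted p = 0.341). The immediate early sum in KO MZ replicate 1 was the lowest of all libraries, and its part in the Klf2 value was not tested.

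Klf10, the TGFβ-inducible early gene, fell from T2 to MZ as well. In T1 B-cells Klf10 had 3.56 and 8.25 RPKM in KO and 12.5 and 6.33 RPKM in WT, and in T2 B-cells 4.13 and 4.53 RPKM in KO and 8.75 and 5.14 RPKM in WT. MZ libraries were lower, at 1.61 and 2.13 RPKM in KO and 2.01 and 1.62 RPKM in WT, and FO libraries stood between, at 2.69 and 3.17 RPKM in KO and 4.12 and 2.86 RPKM in WT. No MZ library overlapped a library of another subset. The log2 difference from T2 to MZ was -1.34 (SE 0.27, adjusted p = 0.00261), and it was called in WT alone (-1.65, adjusted p = 0.00945) but not in KO alone (-1.04, adjusted p = 0.0761). These differ by 0.61 (SE 0.55, 95% interval -0.61 to 1.83, adjusted p = 1), so a difference between genotypes was not shown. Relative to FO, the MZ value was lower by less than the threshold (-0.66, SE 0.27, adjusted p = 0.0859), and FO relative to T2 gave -0.69 (SE 0.27, adjusted p = 0.121).

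Klf13, Klf7 and Klf9 were not called in any stage comparison. Klf13, a partner of Sin3a, had means of 55.3 ± 10.4, 44.8 ± 1.34, 36.8 ± 4.42 and 47.0 ± 6.82 RPKM in T1, T2, MZ and FO (SD, n = 4 each), and its lowest value was 32.8 RPKM in KO MZ replicate 1. The 4 MZ libraries (32.8 to 42.8 RPKM) lay just below the 4 T2 libraries (43.2 to 46.0 RPKM), but neither the log2 difference from T2 to MZ (-0.29, SE 0.14, adjusted p = 0.125) nor that relative to FO (-0.35, SE 0.14, adjusted p = 0.0778) passed. Klf7 averaged 4.48 ± 0.543, 5.28 ± 0.888, 4.04 ± 0.312 and 4.76 ± 0.651 RPKM in the same order. Its difference from T2 to MZ was small and below the fold threshold (-0.34, SE 0.10, adjusted p = 0.0203), and relative to FO it was -0.21 (SE 0.10, adjusted p = 0.136).

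Klf9 was the one member whose mean was highest in MZ B-cells, at 2.18 and 3.12 RPKM in KO and 3.96 and 2.30 RPKM in WT. FO B-cells had 1.08 and 1.36 RPKM in KO and 2.36 and 1.42 RPKM in WT. In KO both MZ libraries were above both FO libraries, while in WT the MZ replicate 2 value was just under that of FO replicate 1. The log2 difference in MZ relative to FO was 0.73 (SE 0.22, adjusted p = 0.0232), which passed on p but not on fold, and from T2 to MZ it was 0.36 (SE 0.22, adjusted p = 0.209). In T1, Klf9 had 1.65 and 1.85 RPKM in KO and 3.40 and 1.87 RPKM in WT. In T2, it had 1.71 and 1.70 RPKM in KO and 3.06 and 2.07 RPKM in WT. T1, T2 and FO overlapped. At the low end of Klf9, 60 reads stood behind a value.

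In Klf4 and Klf6 the replicates differed more than the subsets did. Klf4, which can arrest cells in G1, had 2.97 and 68.0 RPKM in KO T1 and 192 and 44.3 RPKM in WT T1, and 20.6 and 79.1 RPKM in KO T2 and 109 and 53.9 RPKM in WT T2. MZ libraries had 0.874 and 45.5 RPKM in KO and 110.3 and 22.1 RPKM in WT, and FO libraries had 2.099 and 37.1 RPKM in KO and 87.8 and 7.03 RPKM in WT. In each KO group replicate 2 was the higher, and in each WT group replicate 1 was, with a median ratio of 7.57 between the higher and the lower replicate on the scale of RPKM + 0.5. From T2 to MZ the log2 difference of Klf4 was -1.50 (SE 1.42, adjusted p = 0.427), and in MZ relative to FO it was 0.32 (SE 1.42, adjusted p = 0.887), with a 95% interval from -2.82 to 3.46. With a replicate block within each genotype, Klf4 was called lower in MZ than in T2 (adjusted p = 0.0325 by limma) and in FO than in T2. Matched by replicate number within a genotype, Klf4 was lower in FO than in T2 each time. It was lower in MZ than in T2 except in WT replicate 1. Replicate differences correlated at 0.19 to 0.44 between KO groups and at 0.076 to 0.45 between WT groups. The labels do not say whether replicate numbers pair libraries, and the main fit did not pair them.

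Klf6, a factor induced by activation and stress, followed the same pattern of replicates. Its values were 21.8 and 70.2 RPKM in KO T1 and 116 and 49.2 RPKM in WT T1, and 50.8 and 139 RPKM in KO T2 and 158 and 102 RPKM in WT T2. MZ libraries had 17.4 and 114 RPKM in KO and 205 and 71.0 RPKM in WT, and FO libraries 35.6 and 85.5 RPKM in KO and 179.6 and 43.0 RPKM in WT. The 4 subsets overlapped. The log2 difference was -0.49 (SE 0.72, adjusted p = 0.62) from T2 to MZ and 0.074 (SE 0.72, adjusted p = 0.951) in MZ relative to FO. For Klf4 and Klf6, KO alone gave -0.31 and -0.30 in MZ relative to FO, the opposite sign of the averaged values.

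Each library's KLF levels were then set beside its immediate early sum. In all 8 groups the replicate with the higher immediate early sum also had the higher Klf2, Klf4, Klf6 and Klf10. That replicate was replicate 2 in every KO group and replicate 1 in every WT group, so the 8 groups are not 8 separate agreements. Of all genes tested, 1.7% (213 genes) matched in 8 of 8 groups. Klf9 matched in 7 groups, Klf13 in 6, and Klf3 and Klf7 in 4. The myeloid sum was higher in replicate 2 in all 8 groups. A gene that matched the immediate early order in 8 of 8 groups therefore had to match the myeloid order in 4. The count of 4 for Klf2, Klf4, Klf6 and Klf10 followed from the replicate order and cannot tell the 2 sums apart. Klf7, higher in replicate 1 in every group, matched the myeloid order in 0. The median ratio between replicates was 2.79 for Klf6, 2.09 for Klf2, 1.37 for Klf9, 1.31 for Klf10, 1.18 for Klf13, 1.11 for Klf7 and 1.08 for Klf3, where the median over all genes tested was 1.13. Over the 16 libraries, Pearson's r with the log2 of the immediate early sum was 0.97 for Klf4, 0.91 for Klf6, 0.76 for Klf2, 0.61 for Klf10, 0.50 for Klf9 and 0.18 for Klf3. These are descriptions over libraries of the same 8 groups, and whether handling of the cells sets these levels was not tested.

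**Figure D3:**
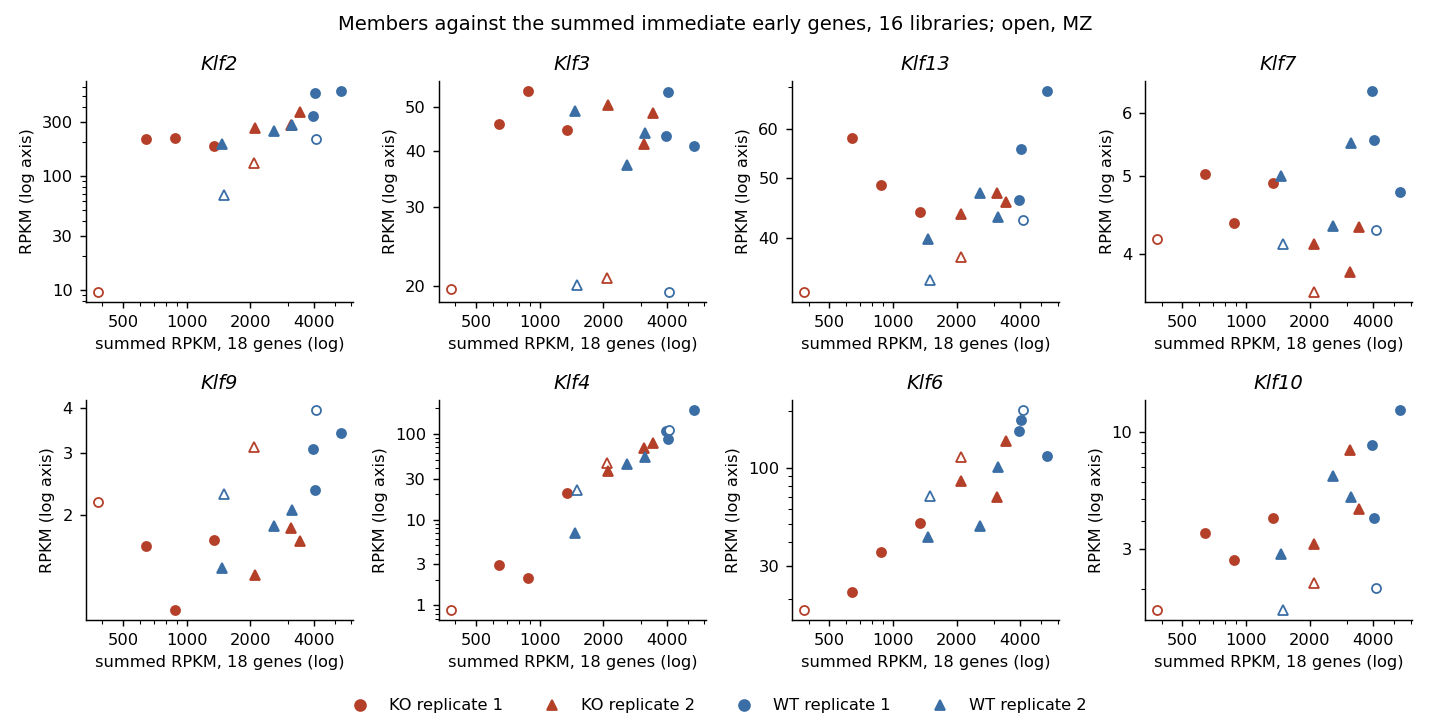
RPKM of each KLF (log axis) against the summed RPKM of 18 immediate early and handling genes (log axis) in the 16 libraries, red for KO, blue for WT, circles for replicate 1, triangles for replicate 2 and open symbols for MZ. Klf4 and Klf6 follow the sum closely (r of 0.97 and 0.91) and Klf3 does not (0.18). In Klf2 the open MZ symbols lie below the others at a like sum, apart from KO MZ replicate 1. Its sum of 380 RPKM has no like among the others, where the lowest is 642 RPKM.

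Because Klf2 and Klf6 both moved with the immediate early sum, their ratio within a library was also taken, a measure chosen after the values had been seen and given without a test. Klf2 over Klf6 was 9.64 and 3.96 in KO T1 and 4.80 and 5.06 in WT T1, and 3.63 and 2.61 in KO T2 and 2.14 and 2.74 in WT T2. It was 0.556 and 1.16 in KO MZ and 1.03 and 0.959 in WT MZ, and 6.04 and 3.08 in KO FO and 2.97 and 4.41 in WT FO. All 4 MZ libraries, KO MZ replicate 1 among them, were below all 12 others, and T2 lay below T1 with no overlap. The ratio shows that the pair changed unequally and not which of them changed. The ratio of Klf2 to Klf3, in contrast, overlapped between MZ (0.490 to 10.9) and T2 (4.15 to 7.86). The ratio of Klf2 to Klf4, the KLF closest to the immediate early sum, also overlapped, at 1.91 to 11.1 in MZ, against 3.11 to 8.94 in T2 and 6.07 to 102.6 in FO.

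**Figure D4:**
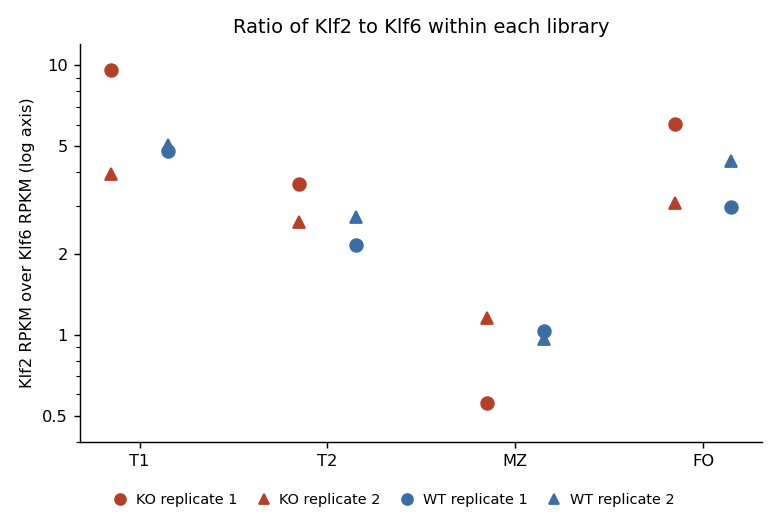
Klf2 RPKM divided by Klf6 RPKM within each library (log axis), by subset, with KO left of WT, circles for replicate 1 and triangles for replicate 2. The 4 MZ libraries span 0.556 to 1.16 and the 12 others 2.14 to 9.64.

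Of the 9 other KLF family genes, 4 were tested (Klf8, Klf11, Klf12 and Klf16). In each MZ comparison 1 of the 4 was called, against 10.8% of all genes from T2 to MZ and 9.2% relative to FO. Klf11, a relative of Klf10, was called lower in MZ than in T2 (log2 difference -1.74, SE 0.45, adjusted p = 0.00942) and than in FO (-1.55, SE 0.45, adjusted p = 0.0192), with 0.315 and 2.03 RPKM in KO MZ and 2.65 and 1.39 RPKM in WT MZ. Klf11 replicates differed in the same way as those of Klf10. Klf12 had the smallest MZ against FO difference of these (-0.060, SE 0.27, adjusted p = 0.887). Klf1, Klf5, Klf14, Klf15 and Klf17 did not exceed 1 RPKM in any library. Of the related SP factors, which share the GC-box site, 4 of 9 were tested and 0 called. All 4 lay below 0 in both MZ comparisons, with medians of -0.48 from T2 to MZ and -0.42 relative to FO. Sp1, Sp2 and Sp3 had adjusted p under 0.05 in both but stayed under the fold threshold. Of 9 tested corepressors and coactivators (among them Ctbp1, Sin3a and Ep300), 0 were called in any stage comparison, with medians of -0.11 from T2 to MZ and -0.22 relative to FO. Ep300, a histone acetyltransferase, had the lowest value relative to FO (-0.45, SE 0.084, adjusted p = 0.00168, under the fold threshold).

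Among 6 genes known to act upstream of Klf2, 1 was called in MZ relative to FO, against 9.2% of all genes. This was Mef2c, which was lower in MZ (log2 difference -1.06, SE 0.085, adjusted p = 4.19e-06). Its values were 53.5 and 47.6 RPKM in KO MZ and 44.0 and 50.1 RPKM in WT MZ, against 97.8 and 104 RPKM in KO FO and 103 and 102 RPKM in WT FO. The MZ and FO libraries did not overlap, and MZ relative to T2 fell just short of the fold threshold (-0.97, SE 0.085, adjusted p = 7.71e-06). Map2k5, which encodes the kinase that activates ERK5, had the highest value relative to FO (0.12, SE 0.13, adjusted p = 0.504). The median of the 6 was -0.40 from T2 to MZ and -0.28 relative to FO.

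Of 7 homing genes linked to Klf2 in lymphocytes, 4 were called in each MZ comparison, against 10.8% of all genes from T2 to MZ and 9.2% relative to FO. Itgb7 and Ccr7 were lower in MZ than in T2 and FO, and S1pr1 was higher in both. Itgb7, the β7 integrin chain used for gut homing, had the largest difference relative to FO (-3.17, SE 0.25, adjusted p = 3.87e-06), with 10.8 and 17.7 RPKM in KO MZ and 9.31 and 14.9 RPKM in WT MZ, against 124 and 113 RPKM in KO FO and 122 and 119 RPKM in WT FO. S1pr1, the receptor for exit along sphingosine-1-phosphate and an activated target of Klf2 in T-cells, went the other way (1.19, SE 0.16, adjusted p = 0.000156), with 369.7 and 330.0 RPKM in KO MZ and 362 and 346 RPKM in WT MZ, against 147 and 155 RPKM in KO FO and 171 and 142 RPKM in WT FO. Both genes had MZ and FO libraries that did not overlap. Ccr7, the chemokine receptor for T-cell zones, gave -1.87 relative to FO (SE 0.44, adjusted p = 0.0069). It had 20.7 and 41.6 RPKM in KO MZ and 60.1 and 34.2 RPKM in WT MZ, against 98.1 and 134 RPKM in KO FO and 250 and 101 RPKM in WT FO. In every group the replicate with the higher immediate early sum had the higher Ccr7, and the part of that sum in the Ccr7 difference was not tested. Cxcr5, Cxcr3 and Cd69 were not called. From T1 to T2, 2 of the 7 homing genes were called higher, against 2.27% of all genes. Among them was Itgb7 (1.84, SE 0.25, adjusted p = 0.000507). Klf2 was not called there (-0.090, SE 0.71, 95% interval -1.65 to 1.47), and a change of Klf2 in either direction could have been missed.

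Of 6 cell cycle genes tied to Klf2 and Klf4, Cdkn1a (the inhibitor p21, a target of Klf4) and Ccnd2 (cyclin D2) were called lower from T2 to MZ, with log2 differences of -1.35 (SE 0.28, adjusted p = 0.00304) and -1.0003 (SE 0.16, adjusted p = 0.00044). That is 2 of 6, against 10.8% of all genes called in this comparison and 4.25% called lower. Ccnd2 only just passed the fold threshold of 1, and the calls of list genes were not followed through the alternative settings. Cdkn1a was low throughout, at 0.0666 to 1.69 RPKM. Myc, which Klf2 restrains in T-cells, was called higher in MZ than in FO (1.73, SE 0.51, adjusted p = 0.0218). That is 1 of 6, against 9.2% of all genes. Myc stood at 58.0 and 214 RPKM in KO MZ and 221 and 189 RPKM in WT MZ, against 28.5 and 52.9 RPKM in KO FO and 83.8 and 33.5 RPKM in WT FO. Its KO MZ replicate 1 value lay within the FO range and the other MZ libraries above it. Of the 18 immediate early genes, Dusp2 and Ier2 were called lower from T2 to MZ and 0 were called relative to FO. From T2 to MZ that is 2 of 18, against 10.8% of all genes called and 4.25% called lower.

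The genes most like each KLF over the 16 libraries, up to 3 for each, were named by Pearson's r on log2(RPKM + 0.5), as a description over libraries of the same 8 groups. Klf2 was most like Tsc22d3 (r = 0.97), a glucocorticoid-induced gene, Plekho2 (0.95) and Cxcr4 (0.95), a chemokine receptor. Klf3 was most like Rassf3 (0.99), Scimp (0.99) and S1pr4 (0.98). The nearest genes to Klf4 were Fosb (0.98), Cd69 (0.98) and Tnfaip3 (0.97), and those to Klf6 were Tgif1 (0.98), Nr4a1 (0.95) and Tob2 (0.95), several of them early-response genes. Klf10 lay nearest Maf (0.98), Arc (0.97) and Gfi1 (0.97). Weaker likeness was found for Klf9 (Taok3 0.91, Gm15621 0.90), Klf13 (Casz1 0.94, Socs7 0.93, 1110007C09Rik 0.91) and Klf7 (Tmf1 0.83, Apc 0.83, Birc3 0.82). Among the KLFs themselves, Klf4 and Klf6 had r = 0.91.

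The second question was what loss of miR-146a changed within a subset. miR-146a is induced by NFκB signalling and pairs with transcripts mainly through its seed, bases 2 to 8, which is in capitals in the mature RefSeq sequence (chr11:43374435-43374456, minus strand, GRCm38.p6).
mmu-miR-146a-5p: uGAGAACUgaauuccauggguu
Seed matches (AGTTCTCA, AGTTCTC or GTTCTCA) were sought in 1 annotated 3′ UTR per gene (GENCODE M21, GRCm38). Klf7 had 3, Klf3, Klf4, Klf9 and Klf13 had 1 each, and Klf2, Klf6 and Klf10 had 0. Of 10308 tested genes with a 3′ UTR, 18.4% held a match. These KLF 3′ UTRs, of 737 to 6266 bases, were mostly longer than the median of 982 bases. The 3 sites of Klf7 and the site of Klf4 are shown, since these are the KLF with most sites and the early-response KLF with one, with the match in capitals.
Klf7 (chr1:64035526-64035554, minus strand): tcgcagaagaaAGTTCTCgcttacaaacc
Klf7 (chr1:64034557-64034585, minus strand): tgggacatcagAGTTCTCtcatccctcct
Klf7 (chr1:64033640-64033668, minus strand): ttggcacttggGTTCTCAgctttctacgg
Klf4 (chr4:55527503-55527531, minus strand): gggggagccaaAGTTCTCcaactgctgca
A match shows that the letters are present and not that the miRNA acts there.

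None of the 8 KLFs was called between KO and WT in any subset. Of all genes, 0.04% were called in T1 and 0.048% in T2, and 0.064% were called in MZ and 0.032% in FO. Every adjusted p of a KLF was 1 (limma), and limma-voom on the recovered reads also called 0 in each subset. At an unadjusted p under 0.05 only Klf7 in T2 passed, where 3.37% of all genes did. It had 4.90 and 4.32 RPKM in KO and 6.40 and 5.51 RPKM in WT. Both KO libraries were below both WT libraries, and the log2 difference was -0.34 (SE 0.14, unadjusted p = 0.0401, adjusted p = 1). The genotypes overlapped in T1 and MZ, at 5.03 and 3.79 RPKM in KO T1 and 4.78 and 4.34 RPKM in WT T1, and 4.18 and 3.58 RPKM in KO MZ and 4.28 and 4.12 RPKM in WT MZ. FO libraries had 4.37 and 4.11 RPKM in KO and 5.56 and 5.01 RPKM in WT, again without overlap (adjusted p = 1 by limma).

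How much change these data could have missed differed between the members. For Klf3, the log2 differences of KO from WT were 0.16 in T1 B-cells and 0.091 in T2 B-cells, and 0.037 in MZ and 0.025 in FO B-cells, where the values in MZ and FO change sign with median-ratio scaling. The 95% interval for Klf3 in T1 ran from -0.036 to 0.36, and those in the other subsets were as wide. For Klf2 they were -0.62, -0.25, -1.72 and -0.42 in T1, T2, MZ and FO, with an SE of 0.999, and the interval in MZ ran from -3.92 to 0.49. For Klf4 the differences were -2.59, -0.91, -2.66 and -1.38 in the order T1, T2, MZ and FO (SE 2.01), and for Klf6 they were -0.93, -0.59, -1.42 and -0.67 (SE 1.02). All intervals of these 3 genes held 0. In MZ, Klf13 stood at 32.8 and 37.2 RPKM in KO and at 42.8 and 34.2 RPKM in WT, which overlapped.

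**Figure D5:**
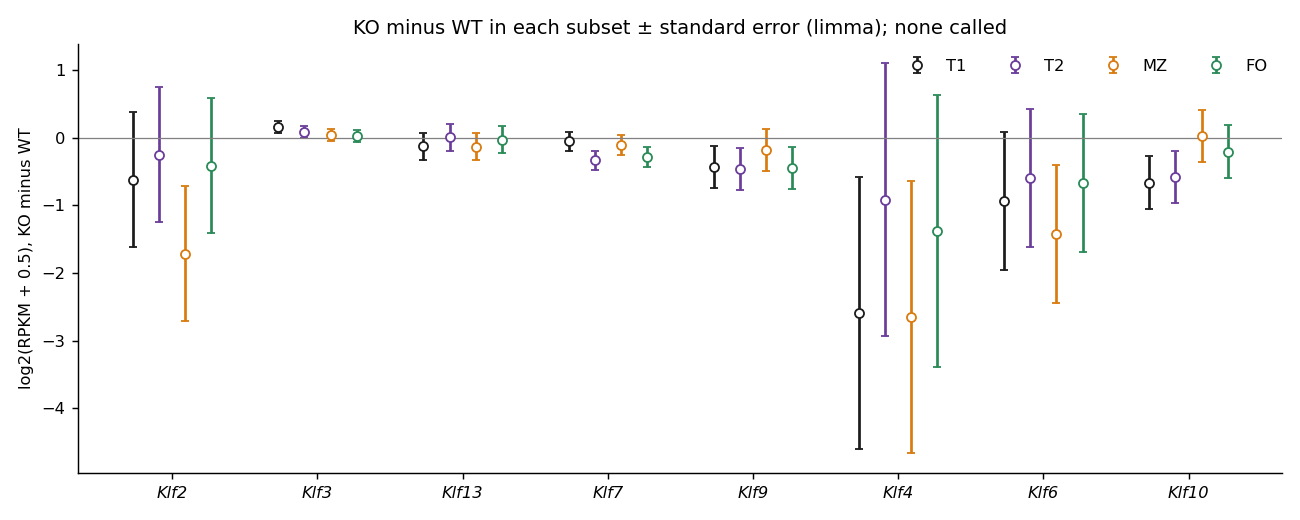
Difference in log2(RPKM + 0.5) of KO minus WT for each KLF in T1 (black), T2 (purple), MZ (orange) and FO (green), with the standard error from limma, where open points were not called. Klf3, Klf13 and Klf7 stay close to 0 with short bars, while Klf4 has a standard error of 2.01 in each subset.

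Klf2, Klf4, Klf6, Klf7 and Klf9 had log2 differences below 0 in KO relative to WT in all 4 subsets, and so did all 18 immediate early genes in each subset, with medians of -1.54, -0.74, -1.95 and -1.07 in T1, T2, MZ and FO and 0 called. The immediate early sums of KO and WT overlapped in every subset. In T1 they were 642 to 3112 RPKM in KO and 2591 to 5361 RPKM in WT, and in MZ 380 to 2089 RPKM and 1505 to 4104 RPKM. In T2 and FO, the direction of Klf2, Klf4 and Klf6 did not hold without single libraries, nor did that of Klf2 in MZ. In T1 it held for these genes whichever library was left out. With KO replicate 1 left out, Klf2 in MZ gave 0.13 and Klf4 in FO gave 0.54. With WT replicate 1 left out, the FO differences became 0.33 for Klf2, 0.39 for Klf4 and 0.36 for Klf6. The part of the immediate early level in these differences was not tested. The change from T2 to MZ was also compared between genotypes, and 0 of 8 KLFs differed (0.008% of all genes were called). For Klf2 the KO change was lower than the WT change by a log2 of -1.47 (SE 1.41, adjusted p = 1), with a 95% interval from -4.59 to 1.65.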

How the data were processed

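RNA-Seq of 16 libraries (4 B-cell subsets, 2 genotypes, 2 replicates each) was used. The authors filtered the reads, aligned them to mm10 with TopHat, kept unique reads and deposited RPKM per gene. The sources used here give neither versions nor whether counting used strand. Antisense genes overlap Klf3, Klf7 and Klf13, the highest of them Gm20033 at 1.25 RPKM, and cannot be told apart from the KLF reads without strand. For 23192 of the 23194 genes above 0 in any library, values were whole multiples of 1 read within 0.01 reads. From these steps and annotated exon lengths, reads and the totals used for scaling (9003343 to 26386684) were recovered.

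R 4.3.3 with limma 3.58.1 served to fit log2(RPKM + 0.5) by 8 group means with a variance trend, over 12507 genes with a mean above 1 RPKM in at least 1 group. Fold changes on this scale understate the change of low genes. p-values measure the spread between replicates, which are pooled sorts. Other steps ran in Python 3.11.15 (pandas 2.3.3, numpy 2.4.6, figures by matplotlib 3.10.9). The fit was tested on simulated data with the same dispersion for every gene and independent libraries. That setting lacks the replicate differences shared between groups seen here, so it cannot test calls such as those of Klf2 or Klf4. The KLFs and the gene lists were chosen with earlier results of these data known. All 8 KLFs are named, with the list genes of the highest and lowest difference in MZ relative to FO (for immediate early genes the 4 highest by mean) and the 3 genes most like each KLF. Klf11, Ccr7, Cdkn1a, Ccnd2, Dusp2 and Ier2 were named after their values were seen. A few genes that these rules name are not reported here. Of the marker lists, B-cell, sort, myeloid, T-cell, endothelial, erythroid and plasma cell genes were summed. T-cell markers came to 6.78 to 29.4 RPKM, erythroid ones to 0.958 to 7.48 RPKM, plasma cell ones to 91.5 to 4160 RPKM, and sort markers to 4519 to 36116 RPKM.

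Alternatives were pseudocounts of 0.1 and 1, no filter, median-ratio scaling, quantile normalization, a replicate block, only the compared groups, each genotype alone and leaving out each library. Chosen after seeing the data were a limma-voom fit of the recovered reads, leaving out the replicate 1 libraries of KO or of WT, and a crossed block.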

Additional observations from a re-analysis of the deposited data

How the results depend on the processing

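Klf3 was called in both MZ comparisons under every alternative, and Klf10 from T2 to MZ under every one except in KO alone. The number of KLFs called from T2 to MZ was 3 and became 1 in KO alone. It was 2, with Klf2 lost, with no filter, with only the compared groups, in WT alone and without the replicate 1 libraries of KO or of WT, and 2 to 3 with each library left out. In MZ relative to FO it was 2 and became 1 (Klf3) with no filter on low values, with a replicate block (Klf2 at adjusted p = 0.0504 by limma), with only the compared groups, in KO alone, in WT alone, and without the replicate 1 libraries of KO or of WT. It was 1 to 2 with each library left out. A replicate block within each genotype added Klf4, giving 4 from T2 to MZ and 1 in FO relative to T2. The numbers were not taken to pair libraries. Replicate differences correlated at 0.19 to 0.44 between KO groups, at 0.076 to 0.45 between WT groups and at -0.23 to 0.30 between KO and WT of a subset. A crossed block called 8 genes in MZ and 4 in FO, as did no block.

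Signs of uncalled values changed as follows. In KO relative to WT, leaving out 1 library gave log2 differences of -0.73 to 0.24 (Klf2), -1.87 to 0.043 (Klf4) and -1.31 to 0.13 (Klf6) in T2, -3.57 to 0.13 (Klf2) and -0.0018 to 0.076 (Klf3) in MZ, and -1.16 to 0.33 (Klf2), -0.045 to 0.095 (Klf3), -3.31 to 0.54 (Klf4) and -1.69 to 0.36 (Klf6) in FO. The genotype difference of the Klf2 change ranged from -3.32 to 0.38. In MZ relative to FO, Klf4 ranged from -0.94 to 1.59 and Klf6 from -0.59 to 0.74, and KO alone gave -0.31 and -0.30. From T2 to MZ, Klf6 ranged from -1.16 to 0.18. Without the KO replicate 1 libraries, KO relative to WT gave 0.24 (Klf2), 0.043 (Klf4) and 0.13 (Klf6) in T2, 0.13 (Klf2) in MZ, and -0.024 (Klf3) and 0.54 (Klf4) in FO. Without the WT replicate 1 libraries, FO gave 0.33 (Klf2), 0.39 (Klf4) and 0.36 (Klf6). Median-ratio scaling gave Klf3 -0.0025 in MZ and -0.0011 in FO. These settings use fewer libraries or shift values near 0, and the cause was otherwise not tested. Depth limits Klf9 and Klf10, with 60 and 66 reads at their lowest.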
